A study of Homo sapiens with 6 samples.

Results

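The genes described here are 39 transcripts known to be induced by androgen in LNCaP-type prostate cancer cells, other than the kallikreins, TMPRSS2, FKBP5 and the prostate surface antigens. They were chosen by name, from general knowledge of androgen-regulated genes, but with earlier results of these data known. All 39 were found among the 28503 lines of the deposited table. Of these, 38 stood at 1 FPKM (fragments scaled to transcript length and library size) or more in at least 1 column and were compared, among 12931 genes in all. STEAP4 did not reach that level.

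The RNA-seq libraries were made from polyadenylated RNA of C4-2 cells, an established line derived from the LNCaP prostate cancer line, at passages 10 to 15 in medium with fetal bovine serum. The tested conditions were GSK126, an inhibitor of the catalytic activity of the histone methyltransferase EZH2; astemizole, an antihistamine reported to disturb the binding of EZH2 to its partner EED; and lentivirus carrying either of 2 EZH2 shRNAs. The controls were vehicle, for both drugs, and lentivirus carrying a scramble shRNA, for the knockdown. The labels give no doses or times. No medium without androgen and no added androgen is named in the labels, so the genes' response to androgen itself was not measured. Each condition has 1 value, and the knockdown is a single column set by the authors, so differences between columns could not be checked against replicates and no test is given. EZH2 itself stood at 17.5 FPKM with GSK126, 9.48 with astemizole and 3.35 in the knockdown column, against 24.6 with scramble shRNA and 26.5 with vehicle. The 10 luminal prostate markers were above 0 in all 5 columns, with summed levels of 3360 to 5703 FPKM.

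Androgen binds the androgen receptor, which then moves to the nucleus and binds DNA at response elements, often in enhancers far from the genes it controls and with the help of pioneer factors. In prostate epithelium its targets include secreted proteins, enzymes of lipid and sugar metabolism, vesicle and membrane transport proteins and regulators of signalling. Many of these genes also answer to other inputs. SGK1 and TSC22D3 are induced by glucocorticoids, and CENPN and MPHOSPH9 belong to the machinery of cell division.

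The levels spanned a wide range in every column. With vehicle, 7 members stood at 100 FPKM or more, 21 at 10 to under 100, 10 at 1 to under 10 and 1 below 1 FPKM. The metabolic genes were the most abundant: DBI stood at 979 FPKM with vehicle, PPAP2A at 517 and SORD at 434. The summed level of the 39 genes was 3351 FPKM with GSK126, 3009 with astemizole and 2500 in the knockdown column, against 3299 with scramble shRNA and 3368 with vehicle. DBI weighed on these sums, and without it they were 2541 FPKM with GSK126, 1842 with astemizole and 2024 in the knockdown column, against 2613 with scramble shRNA and 2388 with vehicle. The sum was therefore lowest with astemizole once DBI was set aside, and lowest in the knockdown column with it.

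**Figure D1:**
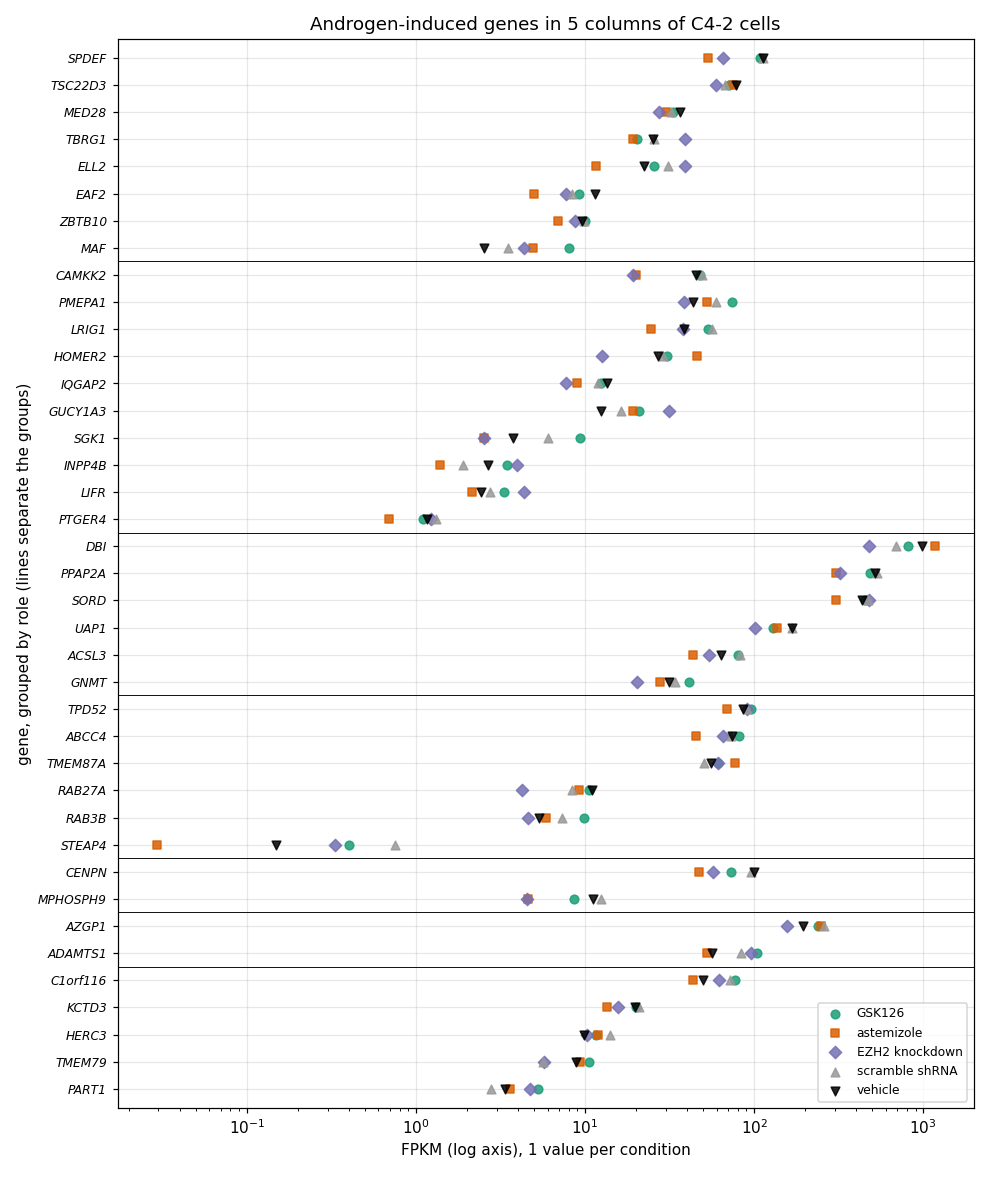
Level of each of the 39 androgen-induced genes in FPKM (horizontal, log axis) in the 5 columns, 1 value per condition, with the genes grouped by role and ordered by their level with vehicle within a group. DBI lies highest and STEAP4 lowest, and for CAMKK2 and MPHOSPH9 the astemizole and knockdown points coincide well to the left of both controls.

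Astemizole and EZH2 knockdown were each accompanied by lower levels of the larger part of these genes. GSK126 was accompanied by slightly higher levels of most when set against vehicle. Set against scramble shRNA, the members' median with GSK126 lay close to that of all genes. Ratios are log2 of FPKM + 1 over FPKM + 1 in the matched control, and on this scale low genes show smaller differences than in FPKM itself. With GSK126, 25 of 38 members were above vehicle, where 45.6% of all genes compared were above it. The median log2 ratio of the members was 0.15, against -0.04 over all genes. When the columns were rescaled to equal sums, the members' median was 0.36, against 0.15 over all genes. It thus lay 0.21 above that of all genes, against 0.18 without rescaling. With astemizole, 27 of 38 were below vehicle, where 55.3% of all genes were, and the median was -0.30 against -0.06. In the knockdown column 27 of 38 were below scramble shRNA, where 47.1% of all genes were, and the median was -0.32 against 0.03.

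Differences of 2-fold or more were few. With GSK126 they were found in 2 of 38 members, MAF and SGK1, both higher, where 1.05% of all genes were that much higher; 0 members were 2-fold lower, where 0.951% of all genes were. With astemizole 5 members were at least 2-fold lower (CAMKK2, MPHOSPH9, SPDEF, EAF2 and CENPN), which is 13.2% of the members against 5.49% of all genes, and 0 were higher, against 3.53%. In the knockdown column 4 members were at least 2-fold lower (CAMKK2, MPHOSPH9, HOMER2 and, at the limit, SGK1), which is 10.5% against 5.11%, and 0 were higher, against 1.93%. At 1.5-fold the counts were 7 higher and 0 lower with GSK126, where 4.93% and 6.39% of all genes were. They were 3 higher and 10 lower with astemizole (all genes 10.4% and 14.6%), and 3 higher and 13 lower in the knockdown column (all genes 8.2% and 11.7%). Between the controls, scramble shRNA over vehicle, 0 members differed by 1.5-fold in either direction, where 1.36% of all genes were higher and 4.66% lower.

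The results also depended on the control column. Scramble shRNA itself was above vehicle for 25 of 38 members (34.8% of all genes), with a median log2 ratio of 0.09 where that of all genes was -0.11. Set against scramble shRNA, GSK126 had a member median of 0.07 where all genes had 0.05, and 14 of 38 members had the opposite sign, or 36.8%, against 30.4% of all genes. Astemizole against scramble shRNA had a member median of -0.38 where all genes had 0.03, and 6 members had the opposite sign, or 15.8%, against 20.7% of all genes. Knockdown against vehicle had a member median of -0.20 where all genes had -0.09, and 5 members had the opposite sign, or 13.2%, against 21.1% of all genes. The members' median thus lay -0.11 from that of all genes with vehicle as the control of the knockdown, against -0.35 with scramble shRNA. A reading that does not depend on the choice between the controls is the number of members outside both control columns, at any size of difference. It still depends on the scaling of the columns. With astemizole 25 of 38 members were below both (41.0% of all genes) and 7 above both (38.0%). In the knockdown column 23 were below both (41.5%) and 10 above both (37.2%). With GSK126 17 were above both (36.8%) and 7 below both (32.7%). At 1.5-fold, 1 member was above both controls with GSK126 (MAF) and 0 were below both. The counts were 1 above and 9 below with astemizole, and 1 above and 9 below in the knockdown column. The share of all genes at that size was not computed, so these counts are not read as a difference between the members and all genes.

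**Figure D2:**
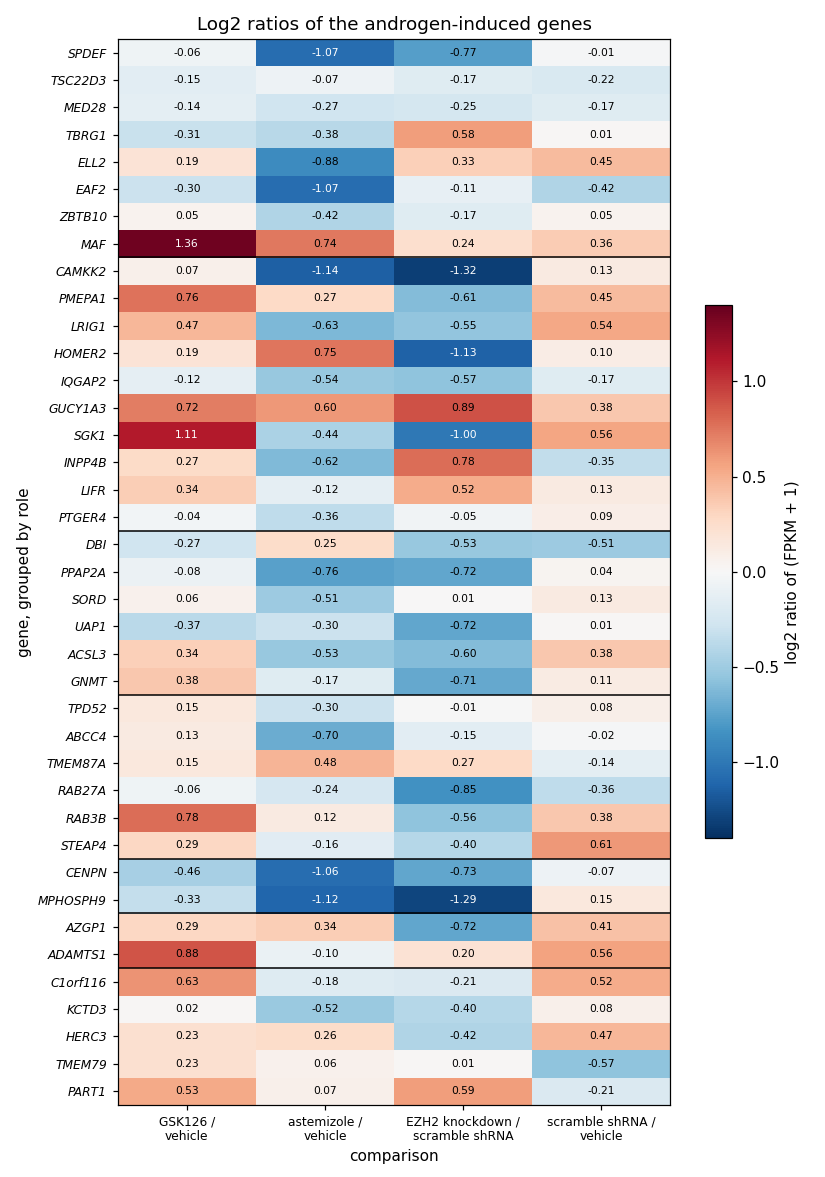
Log2 ratio of FPKM + 1 (colour and printed value) for each of the 39 genes (rows, grouped by role) in the 3 comparisons and between the control columns. The astemizole and knockdown columns are mostly blue, with CAMKK2 at -1.14 and -1.32, and the deepest red is MAF with GSK126 at 1.36.

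**Figure D3:**
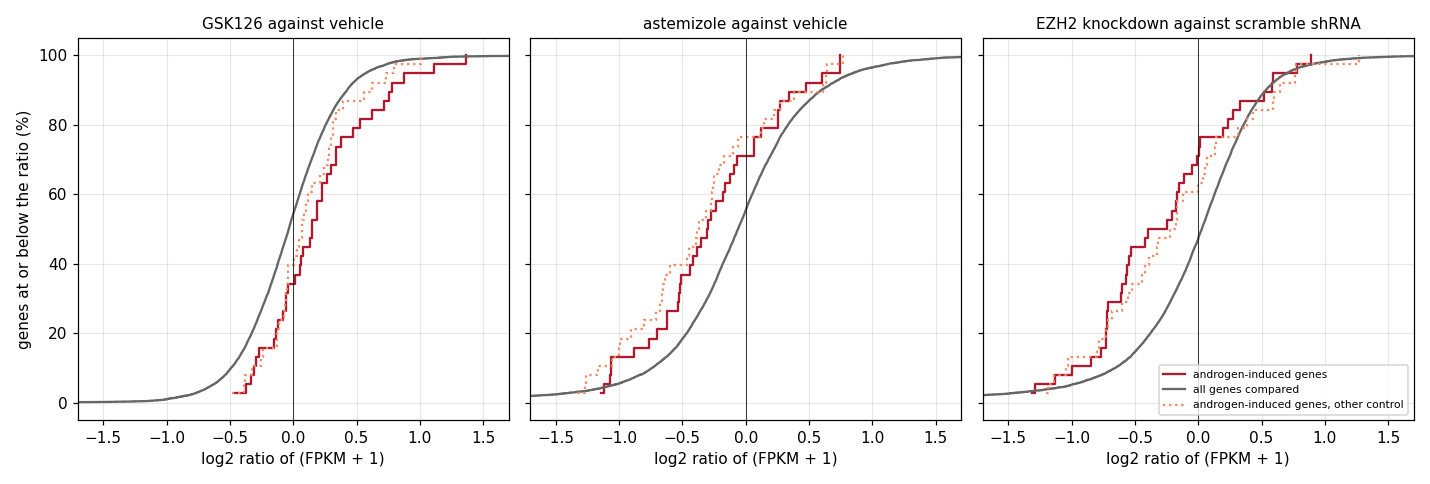
Percent of genes at or below each log2 ratio for the 38 androgen-induced genes compared and for all 12931 genes, with a dotted line for the androgen-induced genes against the other control column. The members' line lies left of all genes over most of its range with astemizole and with knockdown, and right of it with GSK126, where the dotted line lies closer to all genes.

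Promoter sequences of 6 members are shown, picked after the values were seen. CAMKK2, MPHOSPH9, CENPN and SPDEF were lower by at least 1.5-fold with both astemizole and knockdown, as was PPAP2A, which is not shown. MAF had the highest ratio with GSK126, and PMEPA1 was taken because it carries a receptor half-site. The sequences are RefSeq windows of 300 bases in GRCh38.p14, a later build than that of the expression values. They run from 250 before to 50 after an annotated start. Each lies on the strand of its gene, at chr12:121296660-121296959 (minus strand), chr12:123233092-123233391 (minus), chr16:81006964-81007263 (plus), chr6:34556280-34556579 (minus), chr16:79600688-79600987 (minus) and, for the first of 4 listed starts of PMEPA1, chr20:57711423-57711722 (minus). Capitals mark the androgen receptor half-site AGAACA, the CCAAT box, the cell cycle homology region TTTGAA and the cAMP response element TGACGTCA, each on either strand.
CAMKK2: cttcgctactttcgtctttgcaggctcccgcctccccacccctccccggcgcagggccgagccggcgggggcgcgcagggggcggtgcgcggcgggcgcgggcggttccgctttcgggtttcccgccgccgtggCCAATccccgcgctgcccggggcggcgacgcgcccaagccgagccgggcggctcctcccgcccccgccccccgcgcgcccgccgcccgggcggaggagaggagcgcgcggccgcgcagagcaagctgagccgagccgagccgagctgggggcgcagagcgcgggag
MPHOSPH9: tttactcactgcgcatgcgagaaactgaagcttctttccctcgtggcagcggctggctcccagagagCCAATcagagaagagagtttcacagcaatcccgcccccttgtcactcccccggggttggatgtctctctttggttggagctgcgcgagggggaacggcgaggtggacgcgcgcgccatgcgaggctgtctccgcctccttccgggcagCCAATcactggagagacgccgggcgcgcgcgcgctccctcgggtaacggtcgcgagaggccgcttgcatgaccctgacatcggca
CENPN: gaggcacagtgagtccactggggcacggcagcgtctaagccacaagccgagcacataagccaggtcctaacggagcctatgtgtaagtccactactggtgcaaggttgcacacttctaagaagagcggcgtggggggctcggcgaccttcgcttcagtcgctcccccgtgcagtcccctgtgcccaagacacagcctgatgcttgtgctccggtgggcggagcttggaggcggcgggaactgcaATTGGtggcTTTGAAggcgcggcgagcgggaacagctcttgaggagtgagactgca
SPDEF: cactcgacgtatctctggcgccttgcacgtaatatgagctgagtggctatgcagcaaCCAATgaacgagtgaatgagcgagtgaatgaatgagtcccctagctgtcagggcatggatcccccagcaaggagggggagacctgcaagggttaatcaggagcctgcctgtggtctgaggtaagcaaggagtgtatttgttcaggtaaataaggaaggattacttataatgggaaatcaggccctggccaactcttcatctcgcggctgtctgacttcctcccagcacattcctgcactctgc
MAF: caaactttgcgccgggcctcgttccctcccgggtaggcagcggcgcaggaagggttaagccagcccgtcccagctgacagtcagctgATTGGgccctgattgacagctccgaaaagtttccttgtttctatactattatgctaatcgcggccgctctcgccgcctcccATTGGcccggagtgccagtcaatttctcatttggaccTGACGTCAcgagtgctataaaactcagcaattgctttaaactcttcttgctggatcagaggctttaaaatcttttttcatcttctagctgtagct
PMEPA1: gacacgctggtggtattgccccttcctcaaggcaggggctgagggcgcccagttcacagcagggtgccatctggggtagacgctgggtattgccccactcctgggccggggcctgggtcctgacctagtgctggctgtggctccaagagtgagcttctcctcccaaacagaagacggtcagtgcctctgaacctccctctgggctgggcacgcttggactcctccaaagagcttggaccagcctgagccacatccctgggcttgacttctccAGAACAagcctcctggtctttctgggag

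In these windows CAMKK2 and SPDEF hold 1 CCAAT box each, MPHOSPH9 holds 2, CENPN holds 1 next to TTTGAA, and MAF holds 2 and TGACGTCA. The table held windows for 32 of the 39 members, 65 in all. The half-site AGAACA was found in 6 of these 65 windows, or 9.23%, against 14.8% of all 35116 windows. Those 6 belong to PMEPA1, SGK1, LIFR, IQGAP2 and RAB27A. The full element, AGAACA followed by any 3 bases and TGTTCT, was in 0 of the 65 windows and in 1 of all. CCAAT was in 40.0% of the members' windows against 34.6% of all, TTTGAA in 15.4% against 15.2%, and TGACGTCA in 3.08% against 1.85%. The marked matches do not overlap one another in the 6 windows shown. A match is a string of letters, not a measured binding site.

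Among the transcription regulators, MAF and SPDEF differed most. MAF, a basic leucine zipper factor, stood at 8.07 FPKM with GSK126, 4.89 with astemizole and 4.33 in the knockdown column, against 3.52 with scramble shRNA and 2.52 with vehicle. All 3 treated columns were thus above both controls, with log2 ratios to the matched controls of 1.36, 0.74 and 0.24. Against scramble shRNA the ratio with GSK126 was 1.01, and MAF was the 1 member at least 2-fold higher there. SPDEF, an ETS factor of luminal secretory epithelium, stood at 109 FPKM with GSK126, 53.5 with astemizole and 65.7 in the knockdown column, against 112 with scramble shRNA and 113 with vehicle. The GSK126 value lay just under the controls, while the other 2 were clearly lower, at -1.07 with astemizole and -0.77 with knockdown.

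ELL2 and EAF2, whose products bind each other in complexes that stimulate transcript elongation, were both low with astemizole but parted in the knockdown column. ELL2 stood at 25.6 FPKM with GSK126, 11.6 with astemizole and 38.9 in the knockdown column, against 30.8 with scramble shRNA and 22.3 with vehicle. Its knockdown value was the highest of the 5 and its astemizole value the lowest, with ratios of 0.33 and -0.88. EAF2 stood at 9.15 FPKM with GSK126, 4.96 with astemizole and 7.67 in the knockdown column, against 8.36 with scramble shRNA and 11.5 with vehicle. Its ratio with astemizole was -1.07 against vehicle and -0.65 against scramble shRNA, so the 2-fold difference depended on the control. TBRG1, a growth inhibitor linked to p53, was at 38.8 FPKM in the knockdown column against 25.6 with scramble shRNA (0.58), and below its control with both drugs (-0.31 with GSK126 and -0.38 with astemizole). The remaining regulators moved less: the Mediator subunit MED28, the zinc finger repressor ZBTB10 and TSC22D3, the glucocorticoid-induced leucine zipper, had ratios from -0.42 to 0.05 in the 3 comparisons. TSC22D3 ranged between 59.6 and 78.4 FPKM over the 5 columns.

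Of the receptors and signalling proteins, CAMKK2 differed most with both astemizole and knockdown. This kinase activates AMP-activated protein kinase. It stood at 47.7 FPKM with GSK126, 20.0 with astemizole and 19.3 in the knockdown column, against 49.4 with scramble shRNA and 45.2 with vehicle. GSK126 and both controls lay within 45.2 to 49.4 FPKM; astemizole and knockdown lay at 20.0 and 19.3, with log2 ratios of 0.07, -1.14 and -1.32. With the controls exchanged, CAMKK2 had -1.27 with astemizole and -1.19 with knockdown, so it was past 2-fold with either control.

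SGK1, a kinase of the AGC family that is also induced by glucocorticoids, stood at 9.33 FPKM with GSK126, 2.51 with astemizole and 2.51 in the knockdown column, against 6.02 with scramble shRNA and 3.77 with vehicle. GSK126 was above both controls and the other 2 columns below both, but the controls themselves differed by 0.56. Its ratios were 1.11 with GSK126, -0.44 with astemizole and -1.00 with knockdown; with the controls exchanged they were 0.56, -1.00 and -0.44. Of the 13 compared glucocorticoid-induced genes, which include SGK1 and TSC22D3, 1 was at least 2-fold higher and 1 lower with GSK126. With astemizole 1 was higher and 1 lower, and with knockdown 1 higher and 2 lower. Of all genes, 1.05%, 3.53% and 1.93% were that much higher and 0.951%, 5.49% and 5.11% lower. The medians of the 13 were 0.09, -0.01 and -0.17, where all genes had -0.04, -0.06 and 0.03.

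HOMER2, a postsynaptic-type scaffold protein, went opposite ways with astemizole and knockdown. It stood at 30.7 FPKM with GSK126, 45.7 with astemizole and 12.7 in the knockdown column, against 28.9 with scramble shRNA and 26.8 with vehicle. The controls were close together, astemizole lay above both (0.75) and knockdown below both (-1.13). INPP4B, a phosphoinositide phosphatase, showed the reverse at a low level: 3.43 FPKM with GSK126, 1.39 with astemizole and 3.96 in the knockdown column, against 1.89 with scramble shRNA and 2.68 with vehicle. Its ratios were 0.27, -0.62 and 0.78, and with a pseudocount of 0.1 FPKM the knockdown ratio was 1.03.

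GUCY1A3, the alpha subunit of the nitric oxide receptor soluble guanylate cyclase, was above both controls in all 3 treated columns. It stood at 21.0 FPKM with GSK126, 19.3 with astemizole and 31.2 in the knockdown column, against 16.4 with scramble shRNA and 12.3 with vehicle. The ratios were 0.72, 0.60 and 0.89. LRIG1, which restrains receptors of the epidermal growth factor family, was at 24.5 FPKM with astemizole, 56.4 with scramble shRNA and 38.3 with vehicle, and its ratio with astemizole was -0.63 against vehicle but -1.17 against scramble shRNA. PMEPA1, a membrane protein that dampens TGF-beta signalling, was at 74.1 FPKM with GSK126, the highest of the 5 columns (0.76), and at 38.6 in the knockdown column, the lowest (-0.61). The scaffold gene IQGAP2 had -0.12, -0.54 and -0.57 with GSK126, astemizole and knockdown. The cytokine receptor gene LIFR had 0.34, -0.12 and 0.52, and PTGER4, the gene of a prostaglandin E2 receptor, had ratios between -0.36 and -0.04 at 0.690 to 1.31 FPKM.

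The 6 metabolic genes had the lowest median in the knockdown column among the groups with 5 or more members, at -0.66, with 5 of 6 below scramble shRNA. PPAP2A, a lipid phosphate phosphatase of the cell membrane, stood at 488 FPKM with GSK126, 305 with astemizole and 322 in the knockdown column, against 532 with scramble shRNA and 517 with vehicle. As for SPDEF, GSK126 stayed near the controls and the other 2 columns were lower, at -0.76 with astemizole and -0.72 with knockdown. UAP1, which makes UDP-N-acetylglucosamine, had -0.37 with GSK126, -0.30 with astemizole and -0.72 with knockdown. ACSL3, a long-chain acyl-CoA synthetase of lipid droplets, had 0.34, -0.53 and -0.60. SORD, the sorbitol dehydrogenase, was lower with astemizole (305 FPKM against 434, ratio -0.51) and level in the knockdown column (477 against 474, ratio 0.01). GNMT, a methyltransferase that consumes S-adenosylmethionine, stood at 41.1 FPKM with GSK126, 27.8 with astemizole and 20.3 in the knockdown column, against 33.9 with scramble shRNA and 31.3 with vehicle, and its knockdown ratio was -0.71.

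DBI, the acyl-CoA-binding protein, did not follow the other metabolic genes with astemizole. It stood at 810 FPKM with GSK126, 1167 with astemizole and 475 in the knockdown column, against 686 with scramble shRNA and 979 with vehicle. Astemizole was the highest column and knockdown the lowest, with ratios of 0.25 and -0.53, but the controls differed by -0.51, scramble shRNA over vehicle. Against vehicle the knockdown ratio was -1.04.

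In the group of transport and vesicle traffic, 2 small GTPases of the Rab family that act in regulated exocytosis both had low values in the knockdown column. RAB27A stood at 10.5 FPKM with GSK126, 9.23 with astemizole and 4.24 in the knockdown column, against 8.41 with scramble shRNA and 11.0 with vehicle. Its knockdown ratio was -0.85, and -1.20 against vehicle. RAB3B stood at 9.87 FPKM with GSK126, 5.90 with astemizole and 4.61 in the knockdown column, against 7.27 with scramble shRNA and 5.34 with vehicle. It was highest with GSK126 (0.78) and lowest in the knockdown column (-0.56), while RAB27A with GSK126 lay near vehicle (-0.06).

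ABCC4, an exporter of cyclic nucleotides and organic anions, stood at 81.1 FPKM with GSK126, 45.2 with astemizole and 65.7 in the knockdown column, against 73.0 with scramble shRNA and 74.0 with vehicle. The controls nearly coincided, and astemizole was well below them (-0.70). TPD52, a vesicle traffic protein, had 0.15, -0.30 and -0.01 in the 3 comparisons, and the Golgi membrane protein gene TMEM87A was above its control in all 3, at 0.15, 0.48 and 0.27. The metalloreductase gene STEAP4 stood at 0.402 FPKM with GSK126, 0.0293 with astemizole and 0.333 in the knockdown column, against 0.754 with scramble shRNA and 0.148 with vehicle. At these levels no difference is read from the ratios, and the 2 controls themselves were far apart.

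The cell division genes were below both controls in all 3 treated columns. MPHOSPH9, a phosphoprotein of centrioles, stood at 8.64 FPKM with GSK126, 4.61 with astemizole and 4.53 in the knockdown column, against 12.5 with scramble shRNA and 11.1 with vehicle. The ratios were -0.33, -1.12 and -1.29, and with the controls exchanged -0.48, -1.26 and -1.14. CENPN, which binds centromeric nucleosomes, stood at 72.7 FPKM with GSK126, 47.4 with astemizole and 57.2 in the knockdown column, against 95.6 with scramble shRNA and 100.3 with vehicle. Its ratios were -0.46, -1.06 and -0.73.

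In a list of 24 mitotic genes that includes CENPN, 24 were at least 2-fold lower with astemizole and 23 with knockdown, CENPN being the exception. Of all genes, 5.49% with astemizole and 5.11% with knockdown were that much lower. CENPN had the ratio closest to 0 of that list in both comparisons. With astemizole the 23 others ranged from -3.88 to -1.79, and with knockdown from -4.14 to -2.21. The summed level of the mitotic genes was 1003 FPKM with GSK126, 243 with astemizole and 159 in the knockdown column, against 1236 with scramble shRNA and 1879 with vehicle. In bulk RNA, fewer dividing cells and less of these transcripts per cell cannot be told apart, and the part of this shift in the values of CENPN and MPHOSPH9 was not tested.

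The secreted proteins differed from each other. AZGP1, the zinc-binding alpha-2-glycoprotein of prostate secretions, stood at 239.7 FPKM with GSK126, 248 with astemizole and 157 in the knockdown column, against 259 with scramble shRNA and 195 with vehicle. Knockdown was below both controls (-0.72), while the drugs lay between the controls. ADAMTS1, a secreted metalloprotease, stood at 104 FPKM with GSK126, 52.3 with astemizole and 95.6 in the knockdown column, against 83.1 with scramble shRNA and 56.0 with vehicle. Its ratio with GSK126 was 0.88 against vehicle and 0.31 against scramble shRNA. Scramble shRNA was itself above vehicle for both, by 0.41 for AZGP1 and 0.56 for ADAMTS1.

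GSK126 and, less so, vehicle also held RNA of genes that liver expresses. The 20 liver markers summed to 215 FPKM with GSK126, 6.21 with astemizole and 3.51 in the knockdown column, against 2.42 with scramble shRNA and 24.4 with vehicle, and 1, 9, 6, 11 and 3 of them were at 0 in these columns. AZGP1, GNMT and SORD are also made in liver, and their ratios with GSK126 were 0.29, 0.38 and 0.06. They are examples, not a full list of such members. In all, 13 of the 38 members compared were below vehicle with GSK126, among them DBI (-0.27) and IQGAP2 (-0.12). How much RNA from the source of the liver markers adds to these or any other members, MAF and SGK1 included, was not tested. Blood markers summed to 10.0 FPKM with GSK126 and at most 3.88 in the other columns, and fibroblast markers to at most 3.31 in any column. The 5 basal prostate markers summed to 7.58 to 12.0 FPKM over the columns, and 2 of them reached 1 FPKM, KRT14 and ITGA6.

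Among the remaining members, the prostate-enriched long noncoding RNA PART1 was higher with GSK126 (0.53) and knockdown (0.59). It stood at 5.30 FPKM with GSK126, 3.59 with astemizole and 4.71 in the knockdown column, against 2.79 with scramble shRNA and 3.38 with vehicle. C1orf116, also called specifically androgen-regulated gene, stood at 77.2 FPKM with GSK126, 43.7 with astemizole and 62.2 in the knockdown column, against 72.0 with scramble shRNA and 49.7 with vehicle. GSK126 was above and astemizole below both controls, which were 0.52 apart. KCTD3 stood at 20.0 FPKM with GSK126, 13.5 with astemizole and 15.6 in the knockdown column, against 20.9 with scramble shRNA and 19.8 with vehicle. It was below its control with astemizole (-0.52) and knockdown (-0.40). The ubiquitin ligase gene HERC3 had 0.23, 0.26 and -0.42 in the 3 comparisons, and TMEM79 had 0.23, 0.06 and 0.01. Of the 38 genes compared, TMEM79 differed most between the controls, at 5.67 FPKM with scramble shRNA against 8.88 with vehicle (-0.57).

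Astemizole and knockdown can be set beside each other without a shared column. Of 38 members 21 were below their control in both comparisons, or 55.3%, against 31.9% of all genes, and 5 were above it in both, or 13.2% against 29.3%. The other 12, or 31.6%, had opposite signs, against 38.6% of all genes. The members lower by at least 1.5-fold in both were CAMKK2, MPHOSPH9, CENPN, SPDEF and PPAP2A. They make up 50.0% of the 10 lower with astemizole and 38.5% of the 13 lower with knockdown; for all genes these shares were 43.2% and 53.7%. GUCY1A3 was the 1 member at least 1.5-fold higher in both, or 33.3% of the 3 higher with astemizole and 33.3% of the 3 higher with knockdown; for all genes these shares were 23.5% and 30.0%. Genes higher with astemizole and lower with knockdown were HOMER2, DBI, AZGP1, PMEPA1, RAB3B and HERC3. Those lower with astemizole and higher with knockdown were ELL2, INPP4B, TBRG1, LIFR, ADAMTS1 and SORD. Against the scramble column PMEPA1, RAB3B, AZGP1 and HERC3 were below their control with astemizole too.

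**Figure D4:**
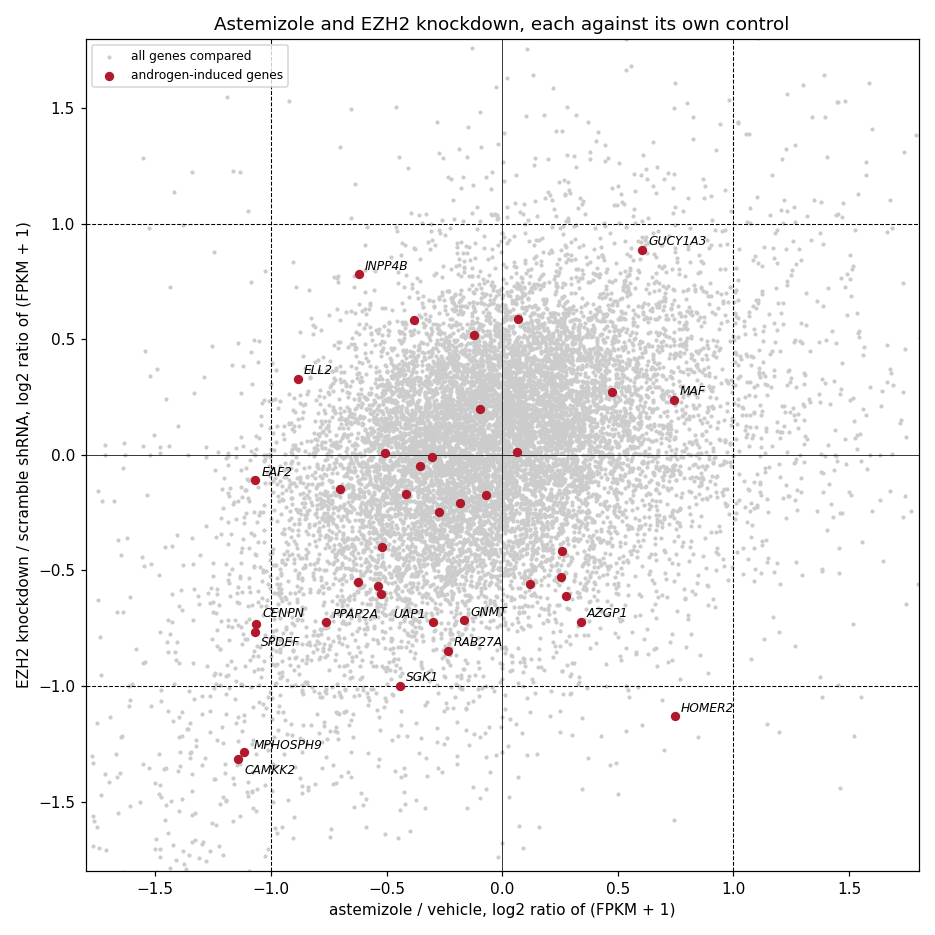
Log2 ratio of FPKM + 1 with astemizole over vehicle (horizontal) and with EZH2 knockdown over scramble shRNA (vertical), for the 38 androgen-induced genes (red) and all genes compared (grey); dashed lines mark 2-fold, and genes beyond the axis limits are not drawn. CAMKK2 and MPHOSPH9 lie past 2-fold on both axes, HOMER2 stands alone at lower right and INPP4B and ELL2 at upper left.

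The other genes of the androgen response were described from a list of 80, of which 78 were compared, including KLK2, KLK3, FKBP5 and TMPRSS2. With GSK126 the median was 0.07, against -0.04 over all genes. Of the 78, 3 were past 2-fold on the high side (1.05% of all genes) and 0 on the low side (0.951%). The largest ratios belonged to ALDH1A3, a retinaldehyde dehydrogenase, at 1.60, the receptor gene BMPR1B at 1.32 and TSC22D1 at 1.25. With astemizole the median was -0.08, close to the -0.06 of all genes. Here 5 of the 78 were past 2-fold on the high side (3.53% of all genes) and 9 on the low side (5.49%). HSD17B14, a steroid dehydrogenase, had 2.51, KLK2 had -2.10 and the desaturase gene SCD had 1.98. With knockdown the median was -0.16, against 0.03 over all genes. Here 2 of the 78 were past 2-fold on the high side (1.93% of all genes) and 8 on the low side (5.11%). FKBP5, an immunophilin of steroid receptor complexes, had -2.41, the desaturase gene FADS1 -1.58 and the cargo receptor gene LMAN1 -1.44. Of 9 androgen-repressed genes, 5 were compared. At least 2-fold higher were 2 with GSK126, 1 with astemizole and 2 with knockdown, and 0 were lower in each. Of all genes, 1.05%, 3.53% and 1.93% were that much higher and 0.951%, 5.49% and 5.11% lower. CAMK2N1, an inhibitor of calcium and calmodulin-dependent kinase II, was above 1 in each comparison, at 1.18, 1.39 and 1.64. The medians of the 5 were 0.47, 0.79 and 0.91, where all genes had -0.04, -0.06 and 0.03. With the controls exchanged the 5 had 0.37, 0.36 and 0.78, where all genes had 0.05, 0.03 and -0.09.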

How the data were processed

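Polyadenylated RNA from C4-2 cells was measured in 6 libraries, of which the deposited table gives 5 columns of FPKM, made by the authors. TopHat2, Cuffdiff and the build hg19 are named in the submitters' processing notes. Versions, annotation, filters and the way the knockdown column was made from 2 hairpin libraries are not given in the sources used. FPKM holds no totals, so absolute depth is unknown. Ratios of low values to the vehicle column piled up at 0.949 (GSK126), 1.05 (astemizole) and 0.856 (scramble shRNA), the relative worth of 1 read. Of 28503 lines, 27 with date-like names and 1684 short non-coding RNA genes were left out, and the 12931 genes at 1 FPKM or more in any column were compared as log2 ratios with a pseudocount of 1 FPKM (Python 3.11.15, pandas 2.3.3). No test was made; 2-fold is a size of difference. The code was run on simulated data, which checks the arithmetic only. How far a single column would vary between replicates was not tested. Values in every column are given for members past 2-fold or with the largest ratio of their role group in a comparison; further members, and the promoter motifs, were chosen after values were seen. Of other lists, counts, medians and up to 3 largest ratios are given. The members and lists were chosen with earlier results of these data known. Alternatives were a pseudocount of 0.1 FPKM, no filter, TPM rescaling, the other control and a 1.5-fold threshold.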

Additional observations from a re-analysis of the deposited data

How the results depend on the processing

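No paired analysis was possible because each condition has 1 column and the columns carry no replicate numbers. Without the filter on low values, the counts of members and of all genes past 2-fold stayed within 1.5 times in the 3 comparisons. The members' medians stayed within 0.1. The other lists, role groups and overlaps were not recomputed under the alternatives, except for list and role-group medians with the other control. TPM rescaling moved the median of all genes with GSK126 over vehicle from -0.04 to 0.15, the members' median to 0.36 and the counts of all genes at least 2-fold higher and lower to 285 and 70; relative to all genes the members' median was 0.18 before and 0.21 after. With a pseudocount of 0.1 FPKM the counts of all genes were 370 higher and 236 lower with GSK126, 750 higher with astemizole, and 488 higher and 1004 lower with knockdown, and 1 member, INPP4B, was 2-fold higher with knockdown. With the other control 1 member was 2-fold higher with GSK126, 51 genes in all were 2-fold lower with GSK126, 1 member was 2-fold higher with knockdown (GUCY1A3, 1.27) and the knockdown median was -0.20. With that control 10 of 114 single ratios crossed 2-fold in one direction or the other. A 1.5-fold threshold gave 7 members higher with GSK126, 3 higher and 10 lower with astemizole, and 3 higher and 13 lower with knockdown. No member past 2-fold changed sign under these alternatives; the cause of the other shifts was not tested. Depth is unknown, so the counting error of low genes such as STEAP4 and PTGER4 cannot be given.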
